A study of Mus musculus with 15 samples.

Results

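Transcripts of 10 genes that mark oligodendrocyte precursors and the cells that have just left that state were followed through bulk RNA of wild-type mouse forebrain. The genes were chosen by name, with earlier results of these data known, out of the 55487 gene identifiers in the count table. The 5 precursor genes were Pdgfra, Cspg4, Olig1, Olig2 and Tnr, and the 5 stage-specific genes were Gpr17, Bcas1, Enpp6, Sirt2 and Itpr2, whose transcripts are known from committed precursors or newly formed oligodendrocytes. There were 15 libraries in 5 groups of 3. The NT libraries came from untreated wild-type brains. The PLX1X libraries came from brains given what the labels call PLX 1x. The PLX3X_CD0 libraries came from brains given PLX 3x. The titles of the PLX3X_CD30 libraries say PLX without a dose, and only the library name puts them beside the 3x group. The IR libraries came from brains titled IR-BMT. The labels spell out none of these agents, times or procedures, and give no age or sex. All library names also carry the letters SD, whose meaning was not used here. Whether each library is a different animal is not said either, and the spread that p-values are judged by is that among libraries, part or all of which could be technical.

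Oligodendrocyte precursors are dividing cells spread through grey and white matter. They carry the growth factor receptor PDGFRα and the proteoglycan NG2, and they give rise to the cells that wrap axons in myelin. When a precursor commits, it leaves the cell cycle, lowers those surface molecules, passes through a short stage marked by GPR17, BCAS1 and ENPP6, and then makes myelin proteins. OLIG1 and OLIG2 are transcription factors of the whole lineage.

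All 10 genes were well covered and passed the filter on low counts, with raw counts of 256 or more in every library. The shallowest library, NT replicate 1, held 19249641 counts and the deepest, PLX3X_CD0 replicate 3, held 54801136. NT replicate 1 stood apart from the other NT libraries. Its summed level of 7 markers of thalamic neurons was 322 CPM (each count over its TMM-adjusted library total, the level used throughout) against 139 and 147 CPM, and its 8 markers of meningeal fibroblasts summed to 68.2 CPM against 143 and 186 CPM. Without it 4 calls of members against NT ended, those of Tnr, Gpr17 and Enpp6 in PLX1X and of Enpp6 in PLX3X_CD30, and none was gained. The 9 microglial markers summed to 518 to 609 CPM in NT, 32.0 to 67.4 CPM in PLX1X, 27.6 to 52.8 CPM in PLX3X_CD0, 227 to 238 CPM in PLX3X_CD30 and 225 to 255 CPM in IR.

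Against NT, 4, 3, 2 and 3 of the 5 stage-specific genes fell in PLX1X, PLX3X_CD0, PLX3X_CD30 and IR and none rose. Of all genes tested, 8.12%, 9.53%, 1.84% and 15.4% fell. In PLX1X the count was 2 without NT replicate 1 and 1 in a fit on the 6 libraries compared. The precursor genes split. Bcas1 and Enpp6 fell in all 4 treated groups, Enpp6 near the threshold in PLX1X and PLX3X_CD30. Gpr17 and Itpr2 in PLX1X and Sirt2 in PLX3X_CD0 were also near it. Among the stage-specific falls in the PLX groups, only those of Bcas1 held under every setting varied. Olig1 and Olig2 fell in PLX1X and PLX3X_CD0 (Olig1 in PLX3X_CD30 as well), and Tnr and Cspg4 rose in PLX3X_CD0 and IR (Tnr near the threshold in PLX1X as well), while Pdgfra passed the test in no comparison. Changes were tested with edgeR's quasi-likelihood test, adjusted over all 21780 genes tested, with a threshold of 0.05, and are given as log2 fold changes ± the standard error of the fit (SE). In bulk tissue, fewer cells of a type and less RNA per cell cannot be told apart.

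In PLX1X, 1 member rose and 6 fell, in a comparison where 9.97% of all genes tested rose and 8.12% fell. In PLX3X_CD0, 2 members rose and 5 fell (12.2% and 9.53% of all genes). In PLX3X_CD30, none rose and 3 fell (4.74% and 1.84%). In IR, 2 rose and 3 fell (15.1% and 15.4%). Over the 5 groups together, 7 of the 10 members differed among groups, against 39.1% of all genes tested, with Pdgfra, Sirt2 and Itpr2 short of the threshold. That call of Gpr17 (adjusted p = 0.0333) ended without NT replicate 3, PLX1X replicate 3, PLX3X_CD30 replicate 1 or 2, or any IR library. Without NT replicate 1 the counts past the threshold were 4 in PLX1X, 7 in PLX3X_CD0, 2 in PLX3X_CD30 and 5 in IR. The 4 comparisons share the NT libraries and are not independent of each other.

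**Figure D1:**
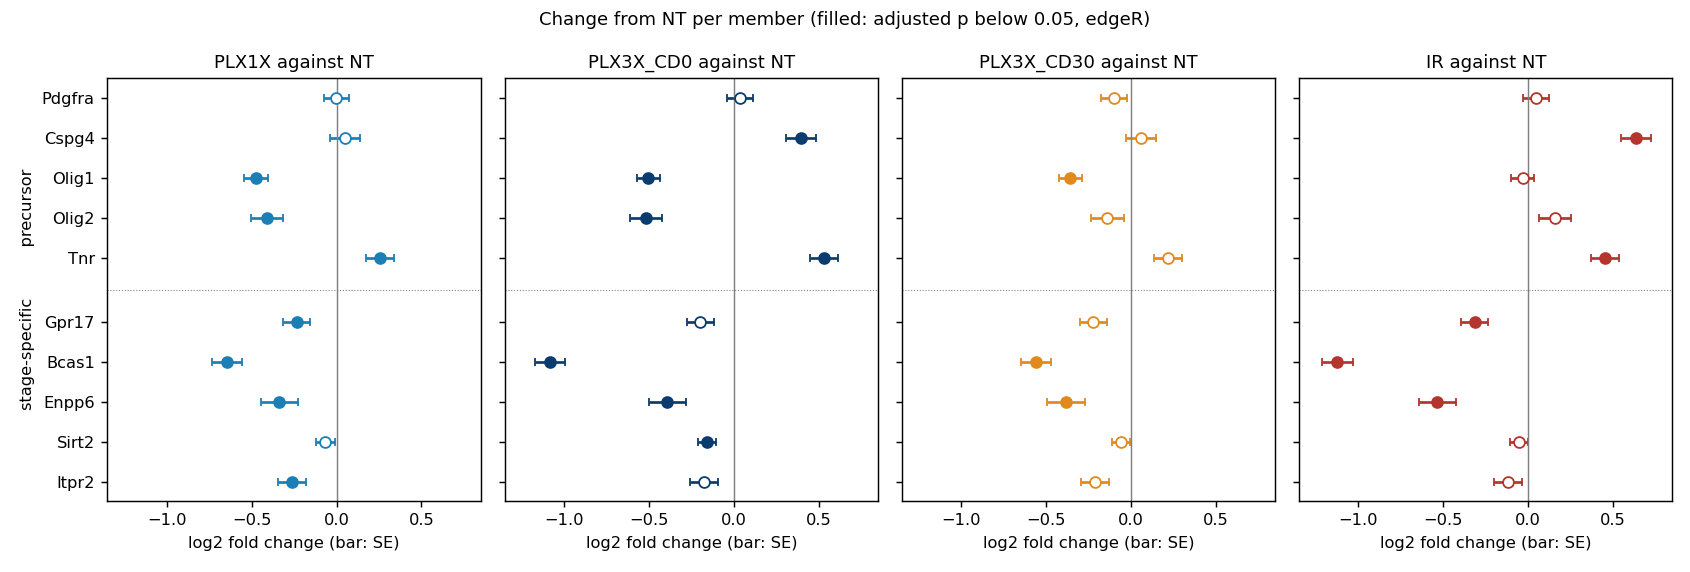
Log2 fold change of each member against NT (points; bars are the standard error of the edgeR fit), with 1 panel per treated group and precursor genes above stage-specific genes. Filled points have an adjusted p below 0.05; Bcas1 is the leftmost point in each panel, at -0.64, -1.08, -0.56 and -1.12, and Tnr and Cspg4 lie to the right of 0 in PLX3X_CD0 and IR.

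Pdgfra encodes the receptor through which PDGF-A drives division and survival of precursors (ENSMUSG00000029231, chromosome 5, 75152292 to 75198215, mm10). Its level was 51.7, 63.0 and 62.3 CPM in NT replicates 1 to 3. It was 60.6, 60.8 and 56.0 CPM in PLX1X and 56.0, 67.2 and 58.9 CPM in PLX3X_CD0. It was 55.5, 55.8 and 54.4 CPM in PLX3X_CD30 and 63.6, 61.8 and 58.0 CPM in IR. All 4 treated groups overlapped NT, and the differences from NT ranged from -0.10 ± 0.08 (SE) in PLX3X_CD30 to 0.05 ± 0.08 in IR on the log2 scale, with adjusted p = 0.488 and 0.683. The test over all 5 groups gave adjusted p = 0.469. Pdgfra is also read by meningeal fibroblasts, of whose 8 markers none passed the test in any comparison against NT. When NT replicate 1, the library low in those markers, was left out, 2, 2, 2 and 1 of the 8 fell in PLX1X, PLX3X_CD0, PLX3X_CD30 and IR, with list medians of -0.41, -0.35, -0.51 and -0.34. Pdgfra was then at -0.17 in PLX3X_CD30 (adjusted p = 0.18) and -0.04 in IR (adjusted p = 0.698), and the part of those cells in its values was not tested.

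Cspg4 and Tnr encode extracellular matrix molecules of precursors, the transmembrane proteoglycan NG2 and the glycoprotein tenascin-R. Both stood higher in PLX3X_CD0 and IR than in NT. Windows were taken from the RefSeq promoter table (GRCm38.p6) for 7 of the 10 members. The windows of this pair are printed because the genes moved together. Each window is the 250 bases before the RefSeq start, printed as far as the first base of the GENCODE gene model. Capitals mark the only match in the pair to any of 3 short motifs searched on both strands, and they lie in the Tnr window.
Tnr, chr1:159523519-159523768, plus strand: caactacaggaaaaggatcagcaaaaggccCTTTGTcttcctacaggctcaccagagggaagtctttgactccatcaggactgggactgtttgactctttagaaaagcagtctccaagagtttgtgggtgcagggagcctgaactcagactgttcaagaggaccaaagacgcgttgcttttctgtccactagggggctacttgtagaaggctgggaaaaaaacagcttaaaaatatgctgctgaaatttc
Cspg4, chr9:56864854-56865032, plus strand: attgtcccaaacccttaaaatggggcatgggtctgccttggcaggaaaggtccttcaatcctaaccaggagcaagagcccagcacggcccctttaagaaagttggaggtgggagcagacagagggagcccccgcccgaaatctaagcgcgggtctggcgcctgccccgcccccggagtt
The first motif, of SOX factors, was ACAAAG, which the Tnr window holds on the opposite strand and which occurs in 16.5% of the 32851 promoter windows of that length in the table. The second, a general E-box, was CAGCTG, found in 13.0% of windows. The third, an E-box bound by OLIG factors, was CAGATG, found in 14.4%. The matches do not overlap each other in the members' windows, and a match describes the letters only. GC content was 46.8% in the Tnr window and 60.4% in the Cspg4 window, against a median of 52.4% over all windows.

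Cspg4 (ENSMUSG00000032911, chromosome 9, 56865033 to 56899870) had 17.6, 21.2 and 22.9 CPM in NT. It had 22.8, 21.3 and 20.1 CPM in PLX1X and 22.1, 21.1 and 21.4 CPM in PLX3X_CD30, both within or beside the NT range. It had 28.0, 28.7 and 24.9 CPM in PLX3X_CD0 and 34.1, 31.8 and 30.4 CPM in IR, with every library above every NT library. The rise was 0.40 ± 0.09 in PLX3X_CD0 (adjusted p = 0.00302) and 0.63 ± 0.09 in IR (adjusted p = 3.13e-05), a level 1.55 times that of NT. Without NT replicate 1 these were 0.31 and 0.53, still past the threshold. With an offset fitted per library to transcript length and GC content they were 0.25 (adjusted p = 0.0218) and 0.29 (adjusted p = 0.00966). Pericytes also carry NG2. Of 9 mural cell markers, none passed in PLX3X_CD0, while in IR Acta2 and Notch3 rose and Rgs5 fell. Neither rise passed without NT replicate 1 (adjusted p = 0.0543 and 0.0941), and with the offset Acta2 alone passed. The summed level of the 9 markers was 135 to 213 CPM in NT, 172 to 190 CPM in PLX3X_CD0 and 169 to 189 CPM in IR, no marker was at 0 in any library, and their part in the Cspg4 result was not tested.

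Tnr (ENSMUSG00000015829, chromosome 1, 159523769 to 159931729) had 55.7, 69.9 and 62.1 CPM in NT. It had 94.7, 89.1 and 88.2 CPM in PLX3X_CD0 and 90.5, 85.8 and 81.2 CPM in IR, all above the NT libraries. The rise was 0.53 ± 0.08 in PLX3X_CD0 (adjusted p = 9.56e-05) and 0.45 ± 0.08 in IR (adjusted p = 0.000315), and 0.46 and 0.37 without NT replicate 1, both past the threshold. In PLX1X the libraries had 83.6, 69.5 and 71.4 CPM, the middle of which lies below the highest NT library. The difference was 0.26 ± 0.08 (adjusted p = 0.0327), and 0.20 without NT replicate 1 (adjusted p = 0.0885). Its call also ended without NT replicate 3 or PLX1X replicate 1, and in a fit on the 6 libraries compared. In PLX3X_CD30 the libraries had 69.7, 77.8 and 71.2 CPM, a difference of 0.22 ± 0.08 (adjusted p = 0.118). Tnr is also made by some neurons. Of 10 neuronal markers, 5 rose in each of PLX1X, PLX3X_CD0 and PLX3X_CD30 and 6 in IR, where 1 fell (none without NT replicate 1). Their summed level ran from 8320 to 9259 CPM in NT and from 10060 to 11660 CPM over the treated libraries, and their part in the Tnr result was not tested.

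**Figure D2:**
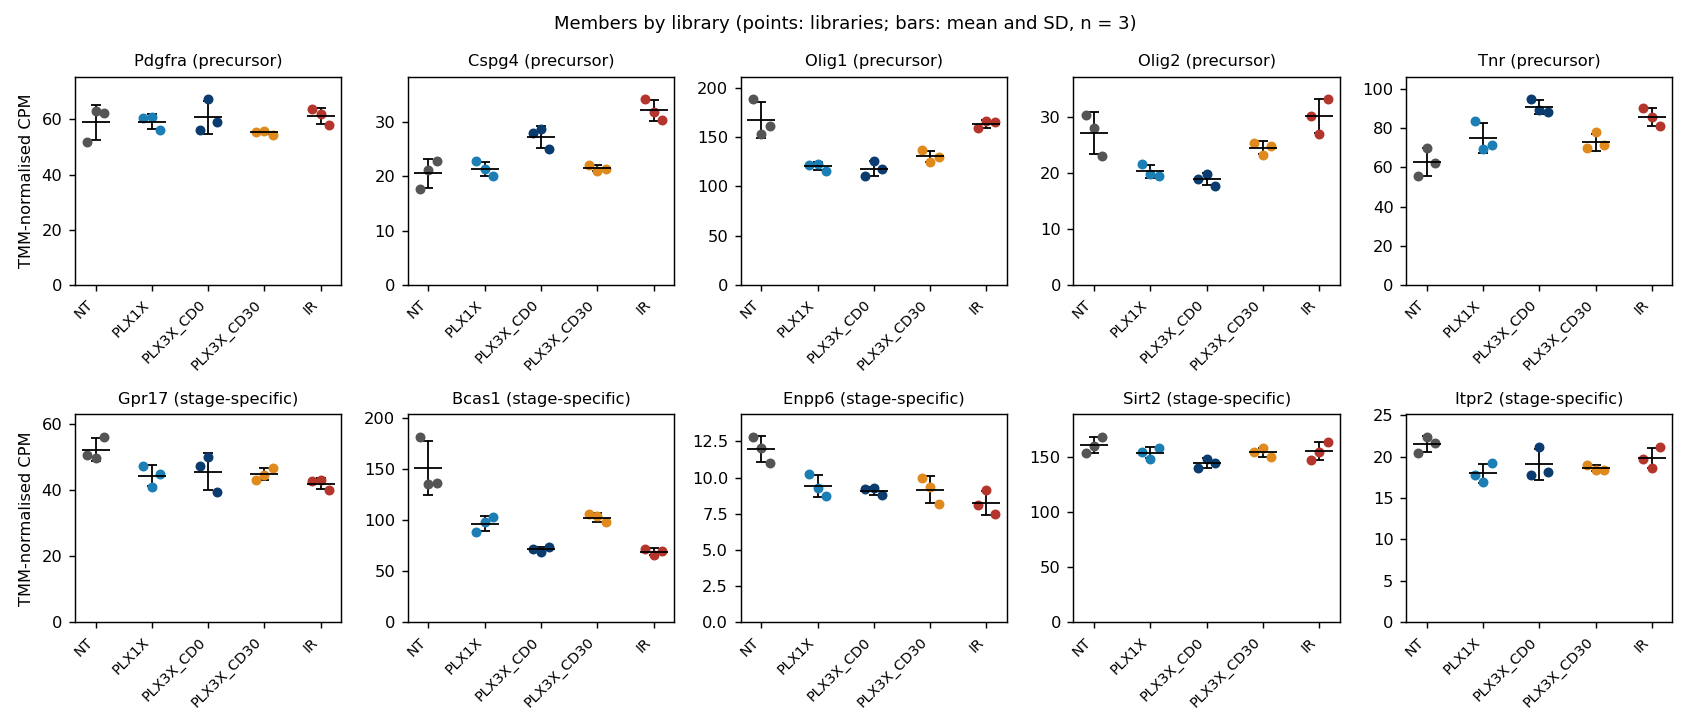
Level of each member in the 15 libraries (points, TMM-normalised CPM on a linear axis from 0), with the mean and SD of each group of 3 as a bar. Bcas1 separates all treated libraries from NT, Olig1 and Olig2 are low in PLX1X and PLX3X_CD0 and near NT in IR, and Pdgfra and Sirt2 overlap between most groups.

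Olig1 and Olig2, which are neighbours in the genome, both fell in PLX1X and PLX3X_CD0 and overlapped NT in IR. They encode basic helix-loop-helix factors that specify the lineage and, for OLIG1, promote its maturation. The genes lie on chromosome 16, Olig2 (ENSMUSG00000039830) at 91225457 to 91228677 and Olig1 (ENSMUSG00000046160) at 91269772 to 91271933, 41.1 kilobases apart on the same strand. The Olig2 window is printed as an example of a GC-rich promoter among the members (66.8% GC), with no match to the 3 motifs in its 250 bases.
Olig2, chr16:91225300-91225456, plus strand: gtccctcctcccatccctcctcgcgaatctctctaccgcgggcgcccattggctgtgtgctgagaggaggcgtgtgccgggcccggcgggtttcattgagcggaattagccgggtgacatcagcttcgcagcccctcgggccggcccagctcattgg
Olig1 had 188, 153 and 161 CPM in NT. It had 122, 123 and 116 CPM in PLX1X, 110, 126 and 118 CPM in PLX3X_CD0 and 137, 125 and 130 CPM in PLX3X_CD30. All 9 of these libraries lay below the lowest NT library. The falls were -0.47 ± 0.07 in PLX1X (adjusted p = 0.000104), -0.50 ± 0.07 in PLX3X_CD0 (adjusted p = 3.33e-05) and -0.36 ± 0.07 in PLX3X_CD30 (adjusted p = 0.00447). The first pair were -0.37 and -0.41 without NT replicate 1, past the threshold. That in PLX3X_CD30 was -0.25 without NT replicate 1 (adjusted p = 0.0139) and missed the threshold in a fit on its 6 libraries alone (adjusted p = 0.0557). In IR, Olig1 had 158.9, 165.9 and 165.5 CPM, a difference of -0.03 ± 0.07 (adjusted p = 0.759). With the length and GC offset, however, Olig1 was called lower in IR than in NT, as given below.

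Olig2 had 30.2, 28.0 and 23.0 CPM in NT. It had 21.6, 19.8 and 19.5 CPM in PLX1X and 19.0, 19.8 and 17.7 CPM in PLX3X_CD0, all below the NT libraries. The falls were -0.41 ± 0.10 (adjusted p = 0.00531) and -0.52 ± 0.10 (adjusted p = 0.000617), and -0.31 and -0.43 without NT replicate 1. In PLX3X_CD30 the level was 25.4, 23.2 and 24.9 CPM and in IR 30.1, 27.0 and 33.1 CPM, both overlapping NT, with differences of -0.14 ± 0.10 (adjusted p = 0.429) and 0.16 ± 0.10 (adjusted p = 0.226). The ratio of Olig1 to Olig2 CPM stayed between 5.00 and 7.01 in the 15 libraries. Of the exon bases of Olig1, 7.26% overlap the antisense gene Gm15966, which the kit, which does not mark strand, cannot separate.

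Bcas1 had the greatest fall of the 10 members in every comparison against NT. Its product is a protein of early myelinating oligodendrocytes (ENSMUSG00000013523, chromosome 2, minus strand, 170346991 to 170427845). The level was 181, 135 and 136 CPM in NT and 106, 104 and 97.8 CPM in PLX3X_CD30. It was 88.7, 97.8 and 103 CPM in PLX1X, 71.5, 68.6 and 73.5 CPM in PLX3X_CD0 and 72.0, 65.9 and 69.6 CPM in IR. No treated library reached the lowest NT library, and the PLX3X_CD0 and IR libraries lay below all those of PLX1X and PLX3X_CD30. The changes were -0.64 ± 0.09 in PLX1X (adjusted p = 9.47e-05), -1.08 ± 0.09 in PLX3X_CD0 (adjusted p = 2.52e-07), -0.56 ± 0.09 in PLX3X_CD30 (adjusted p = 0.00139) and -1.12 ± 0.09 in IR (adjusted p = 3.06e-07). The levels were thus 0.64, 0.472, 0.679 and 0.459 of that in NT. NT replicate 1 was the highest library, and without it the changes were -0.48, -0.93, -0.39 and -0.98, all past the threshold. Of the exon bases of Bcas1, 12.6% overlap 2 antisense genes, Bcas1os1 and Bcas1os2, whose reads cannot be told apart from its own. Of 18 mature myelin genes, 4, 9, 1 and 13 also fell in PLX1X, PLX3X_CD0, PLX3X_CD30 and IR. The part of mature cells in the Bcas1 result was not tested.

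Enpp6 followed with smaller falls. It encodes a choline-specific phosphodiesterase of newly forming oligodendrocytes (ENSMUSG00000038173, chromosome 8, 46986887 to 47096762). The Enpp6 window, printed as that of a member low in all 4 treated groups, is AT-rich (38.4% GC) and holds no match to the 3 motifs.
Enpp6, chr8:46986637-46986886, plus strand: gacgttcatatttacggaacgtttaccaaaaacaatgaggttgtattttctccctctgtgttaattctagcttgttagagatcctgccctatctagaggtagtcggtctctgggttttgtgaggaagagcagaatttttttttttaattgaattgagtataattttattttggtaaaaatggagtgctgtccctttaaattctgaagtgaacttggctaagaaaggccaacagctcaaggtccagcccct
Enpp6 had 12.8, 12.1 and 11.0 CPM in NT. It had 10.2, 9.31 and 8.74 CPM in PLX1X, 9.20, 9.29 and 8.79 CPM in PLX3X_CD0, 9.97, 9.34 and 8.17 CPM in PLX3X_CD30 and 8.07, 9.17 and 7.48 CPM in IR. No treated library reached the lowest NT library. The IR change was -0.54 ± 0.11 (adjusted p = 0.00114; 0.0037 without NT replicate 1). The length and GC offset moved it to -0.32 (adjusted p = 0.0405). Those of PLX1X (-0.34 ± 0.11, adjusted p = 0.037), PLX3X_CD0 (-0.39 ± 0.11, adjusted p = 0.0139) and PLX3X_CD30 (-0.38 ± 0.11, adjusted p = 0.0435) were nearer the threshold. Without NT replicate 1 they were -0.27 (adjusted p = 0.115), -0.34 (adjusted p = 0.0474) and -0.32 (adjusted p = 0.124), and the call in PLX3X_CD0 ended without its replicate 3 (adjusted p = 0.0572). The call in PLX1X also ended without NT replicate 2, PLX1X replicate 2 or 3, or PLX3X_CD30 replicate 2. That in PLX3X_CD30 ended without NT replicate 2, PLX1X replicate 1 or 2, PLX3X_CD0 replicate 1 or 3, or any of its own libraries. The calls in PLX1X and PLX3X_CD30 also ended with no filter on low counts and in fits on the 6 libraries compared.

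Gpr17, a receptor of committed precursors (ENSMUSG00000052229, chromosome 18, minus strand, 31942997 to 31949636), fell in IR and, near the threshold, in PLX1X. It had 50.8, 49.6 and 56.1 CPM in NT and 42.8, 43.0 and 40.1 CPM in IR, below all NT libraries. The fall in IR was -0.31 ± 0.08 (adjusted p = 0.00545), and -0.34 without NT replicate 1 (adjusted p = 0.00629). With the length and GC offset it was -0.49 (adjusted p = 1e-04). In PLX1X the libraries had 47.3, 40.9 and 44.9 CPM, a change of -0.23 ± 0.08 (adjusted p = 0.0468) that missed the threshold without NT replicate 1 (adjusted p = 0.0663) and with DESeq2. It also missed without NT replicate 3, PLX1X replicate 2 or 3, PLX3X_CD0 replicate 1, or any PLX3X_CD30 or IR library. The same held with RLE factors, with the replicate number as a block and in a fit on the 6 libraries compared. In PLX3X_CD0 the libraries had 47.4, 50.0 and 39.4 CPM and overlapped NT, with -0.20 ± 0.08 (adjusted p = 0.0847). In PLX3X_CD30 they had 43.1, 44.5 and 46.7 CPM, below NT, with -0.22 ± 0.08 (adjusted p = 0.106). With the offset both passed, at -0.32 (adjusted p = 0.0035) and -0.28 (adjusted p = 0.0242). The Gpr17 exons share 3.62% of their bases with Lims2, whose level was 11.7 to 14.7 CPM in NT and 9.93 to 13.9 CPM in the treated libraries.

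Itpr2 and Sirt2, the remaining stage-specific genes, each passed the test in a single comparison against NT. Itpr2 encodes a calcium channel of the endoplasmic reticulum (ENSMUSG00000030287, chromosome 6, minus strand, 146108299 to 146502223). It had 20.4, 22.4 and 21.6 CPM in NT and 17.7, 17.0 and 19.2 CPM in PLX1X. The fall was -0.26 ± 0.08 (adjusted p = 0.0343, and 0.0358 without NT replicate 1). It missed the threshold in a fit on those 6 libraries alone and with no filter on low counts. The call also ended without NT replicate 2 or 3, PLX1X replicate 1 or 2, or PLX3X_CD30 replicate 2. The other groups lay between 17.8 and 21.2 CPM, and none passed the test. With the length and GC offset Itpr2 also fell in PLX3X_CD0, at -0.32 (adjusted p = 0.00644), and the 5 groups differed (adjusted p = 0.0296). Astrocytes also use Itpr2. Of 8 astrocyte markers, 4 fell in PLX1X, 7 in PLX3X_CD0, 1 in PLX3X_CD30 and 2 in IR. These counts were 7, 6, 2 and 3 without NT replicate 1, and with the offset 5, 6, 1 and 0. They summed to 3374 to 4051 CPM in NT and 3028 to 3253 CPM in PLX1X, and their part in the Itpr2 result was not tested.

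Sirt2 encodes a cytoplasmic deacetylase that stays high in myelinating cells (ENSMUSG00000015149, chromosome 7, 28766735 to 28788661). It had 153, 160 and 168 CPM in NT and 140, 148 and 144 CPM in PLX3X_CD0. These libraries did not overlap, and the change was -0.16 ± 0.05 (adjusted p = 0.0442). It missed the threshold without any single library of PLX1X, PLX3X_CD0 or PLX3X_CD30, and without NT replicate 2 or 3 or IR replicate 2. The same held with RLE factors, with no filter on low counts and in a fit on the 6 libraries compared. The change was -0.18 without NT replicate 1 (adjusted p = 0.0219). With the length and GC offset Sirt2 also fell in IR, at -0.17 (adjusted p = 0.0141), and the 5 groups differed (adjusted p = 0.0353). The other 9 treated libraries lay between 147 and 163 CPM.

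In each comparison against NT the median of the stage-specific genes lay below that of the precursor genes. In PLX1X the median log2 fold change was -0.00037 over the 5 precursor genes, -0.26 over the 5 stage-specific genes and -0.04 over all genes tested. In PLX3X_CD0 these medians were 0.04, -0.20 and -0.03, in PLX3X_CD30 -0.10, -0.22 and -0.02, and in IR 0.16, -0.31 and -0.05. The precursor medians without NT replicate 1 were -0.07, -0.04, -0.04 and 0.23 in that order of groups, and the stage-specific medians -0.27, -0.21, -0.23 and -0.34. With the length and GC offset the precursor medians were -0.05, -0.09, -0.13 and 0.02, and the stage-specific medians -0.27, -0.32, -0.28 and -0.32. The sign of the precursor median in PLX3X_CD0 thus changed under both settings. The order did not hold throughout in the longer lists counted below, of 14 further precursor genes and 18 of newly formed oligodendrocytes. There the precursor median was the lower in PLX1X (-0.10 against -0.02) and PLX3X_CD30 (-0.22 against -0.13). It was the higher in PLX3X_CD0 (-0.12 against -0.17) and IR (-0.09 against -0.21). The offset kept these orders, and without NT replicate 1 that of PLX3X_CD0 turned (-0.21 against -0.16). All 5 rises of members against NT were of Cspg4 or Tnr, and the falls among precursor genes were of Olig1 or Olig2.

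Within a library, the ratio of Bcas1 to Pdgfra CPM sets a stage-specific gene against a precursor gene and does not depend on the scaling between libraries. It was 3.51, 2.15 and 2.19 in NT. It was 1.47, 1.61 and 1.84 in PLX1X and 1.90, 1.86 and 1.80 in PLX3X_CD30. It was 1.28, 1.02 and 1.25 in PLX3X_CD0 and 1.13, 1.07 and 1.20 in IR. Each treated library lay below each NT library, and the PLX3X_CD0 and IR libraries lay below all PLX1X and PLX3X_CD30 libraries. The ratio of Bcas1 to Tnr was 1.94 to 3.26 in NT, 1.06 to 1.44 in PLX1X, 1.33 to 1.52 in PLX3X_CD30, 0.755 to 0.833 in PLX3X_CD0 and 0.768 to 0.857 in IR. Both ratios set the member with the greatest fall over Pdgfra, which passed no test, or Tnr, which rose in PLX3X_CD0 and IR. Ratios to Olig1 or Olig2, which themselves fell in PLX1X and PLX3X_CD0, were not formed. The separation from NT is therefore stated for these denominators only.

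Per kilobase of the longest annotated transcript, Olig1, Sirt2 and Bcas1 were the most abundant members in NT. Olig1 had 77.5 ± 8.56 CPM per kilobase (SD, n = 3), Sirt2 75.8 ± 3.45 and Bcas1 51.2 ± 8.92. Olig2 followed at 10.7 ± 1.47, Gpr17 at 10.0 ± 0.67 and Pdgfra at 8.63 ± 0.92, then Tnr at 5.13 ± 0.58. Cspg4 at 2.53 ± 0.33, Enpp6 at 2.41 ± 0.18 and Itpr2 at 1.84 ± 0.08 were lowest. The neighbours Olig1 and Sirt2, Olig2 and Gpr17, and Cspg4 and Enpp6 differed by less than their SDs. In IR, Bcas1 stood at 23.4 ± 1.04 CPM per kilobase and Cspg4 at 3.95 ± 0.24.

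The treated groups also differed from each other. PLX3X_CD0 and PLX3X_CD30 carry the same 3x name and a different CD name. Bcas1 and Olig2 were higher in PLX3X_CD30 than in PLX3X_CD0, by 0.52 ± 0.09 (adjusted p = 0.00224) and 0.38 ± 0.10 (adjusted p = 0.0291), and Cspg4 and Tnr were lower, at -0.34 ± 0.09 (adjusted p = 0.0343) and -0.31 ± 0.08 (adjusted p = 0.0309). In that comparison 2 members were higher and 2 lower, against 1.87% and 1.93% of all genes. Each of the 4 differences is toward the NT level. Bcas1 alone kept its call when any library was left out, and the calls of Cspg4, Olig2 and Tnr each ended without PLX3X_CD0 replicate 1, PLX3X_CD30 replicate 1 or PLX3X_CD30 replicate 3.

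Between PLX3X_CD0 and PLX1X, Cspg4 was higher by 0.35 ± 0.09 (adjusted p = 0.0398) and Bcas1 lower, at -0.44 ± 0.09 (adjusted p = 0.0138). Of all genes 1.79% were higher and 0.67% lower, 536 in all, a count that ran from 150 (without PLX1X replicate 2) to 1005 (without NT replicate 1) with single libraries left out. Neither call held throughout: both ended without PLX1X replicate 2 or 3 or PLX3X_CD0 replicate 2, and that of Cspg4 also without PLX1X replicate 1, PLX3X_CD0 replicate 1, IR replicate 2 or 3, or any PLX3X_CD30 library. Between PLX3X_CD30 and PLX1X, edgeR and DESeq2 called 0 of the 10 members. There 1.08% of all genes were higher and 0.129% lower. At an unadjusted p below 0.05 there was 1 member, Olig2, at 0.27 ± 0.10 (adjusted p = 0.212), and a fit on those 6 libraries called it.

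IR differed from the PLX groups in Olig1 and Olig2. Of the 8 other lineage transcription factors counted below, 0 were higher and 1, St18, was lower in IR against each PLX group. With the length and GC offset, 3, 2 and 2 of them were lower against PLX1X, PLX3X_CD0 and PLX3X_CD30, and 0 were higher. Olig1 and Olig2 were higher in IR than in PLX1X, by 0.44 ± 0.07 (adjusted p = 0.000102) and 0.57 ± 0.10 (adjusted p = 0.000193). They were higher than in PLX3X_CD0 by 0.47 ± 0.07 (adjusted p = 0.000108) and 0.68 ± 0.10 (adjusted p = 7.86e-05). They were higher than in PLX3X_CD30 by 0.32 ± 0.07 (adjusted p = 0.00347) and 0.30 ± 0.09 (adjusted p = 0.0378), the last lost without any single PLX3X_CD30 library or IR replicate 1 or 3. Cspg4 was higher in IR than in PLX1X by 0.59 ± 0.09 and than in PLX3X_CD30 by 0.58 ± 0.09, and Bcas1 was lower, at -0.48 ± 0.09 and -0.57 ± 0.09 (adjusted p from 7.18e-05 to 0.000637). Bcas1 did not separate IR from PLX3X_CD0 (-0.04 ± 0.09, adjusted p = 0.797). The counts were 3 higher and 1 lower against PLX1X (13.9% and 14.6% of all genes), 2 higher and none lower against PLX3X_CD0 (10.1% and 11.4%), and 3 higher and 1 lower against PLX3X_CD30 (7.63% and 8.88%).

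Most of these differences of IR from the PLX groups lost their calls when the offset for transcript length and GC content was used. Cspg4, Olig1 and Olig2 have longest transcripts of 59.2%, 61.1% and 58.5% GC, and that of Bcas1 has 50.9%. With that offset, the IR differences of Olig1 became 0.08 against PLX1X (adjusted p = 0.476), 0.18 against PLX3X_CD0 (adjusted p = 0.115) and 0.08 against PLX3X_CD30 (adjusted p = 0.603). Those of Olig2 became 0.29 (adjusted p = 0.0625), 0.46 (adjusted p = 0.00805) and 0.11 (adjusted p = 0.633). Those of Cspg4 became 0.17 against PLX1X (adjusted p = 0.142) and 0.26 against PLX3X_CD30 (adjusted p = 0.0508). The differences of Bcas1 kept their calls, at -0.51 and -0.58, and Gpr17 was lower in IR than in PLX1X, at -0.23 (adjusted p = 0.0389). Against NT, the IR rise of Cspg4 was 0.29 with the offset (adjusted p = 0.00966), and Olig1, near 0 without it, was lower, at -0.30 (adjusted p = 0.00473). The offset also ended the calls of Cspg4, Olig2 and Tnr between PLX3X_CD30 and PLX3X_CD0 and of Cspg4 between PLX3X_CD0 and PLX1X.

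**Figure D3:**
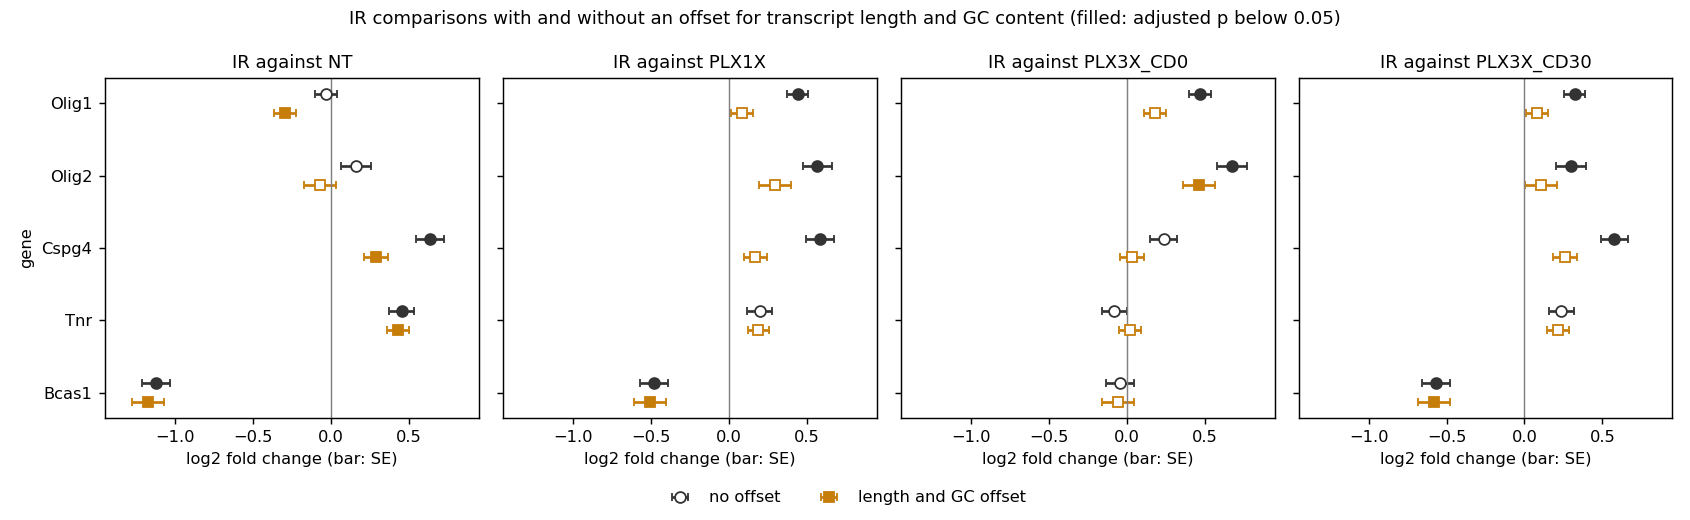
Log2 fold change of 5 members in IR against each other group without (circles) and with (squares) the offset for length and GC content (bars are standard errors; filled symbols have an adjusted p below 0.05). Olig1, Olig2 and Cspg4 move toward lower values with the offset, from 0.44 to 0.08 for Olig1 against PLX1X, while Bcas1 stays at -1.12 and -1.18 against NT.

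Other genes of the pathway were counted from lists chosen by role. In PLX1X, PLX3X_CD0, PLX3X_CD30 and IR against NT, 9.97%, 12.2%, 4.74% and 15.1% of all genes tested rose. The shares that fell were 8.12%, 9.53%, 1.84% and 15.4%, and some of the list counts below are near these shares. Of 14 further precursor genes, 1 rose and 2 fell in PLX1X, 1 rose and 2 fell in PLX3X_CD0, none passed in PLX3X_CD30 with edgeR (3 at an unadjusted p below 0.05, 0 with DESeq2), and 1 rose and 5 fell in IR. Vcan, the proteoglycan versican, fell in IR, at -0.57 ± 0.11 (adjusted p = 0.000662), from 10.3, 12.2 and 12.3 CPM in NT to 7.13, 8.89 and 7.48 CPM. Cacng4, an auxiliary subunit of AMPA receptors, fell, at -0.54 ± 0.12 in IR (adjusted p = 0.00293) and -0.49 ± 0.12 in PLX3X_CD0 (adjusted p = 0.00742). Sox6, a factor that holds precursors undifferentiated, fell, at -0.38 ± 0.09 in PLX3X_CD0 (adjusted p = 0.00601) and -0.36 ± 0.10 in IR (adjusted p = 0.00712). Pcdh15, a protocadherin, fell, at -0.59 ± 0.13 in PLX1X (adjusted p = 0.00399), and Susd5 rose there by 0.54 ± 0.15 (adjusted p = 0.0179). The list's median was -0.10, -0.12, -0.22 and -0.09 in PLX1X, PLX3X_CD0, PLX3X_CD30 and IR, on the low side of the medians of all genes given above. The median without NT replicate 1 was -0.15, -0.21, -0.28 and -0.18, with 1, 1, 0 and 1 higher and 4, 3, 1 and 4 lower.

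Of 18 further genes of newly formed oligodendrocytes, none rose and 1 fell in PLX1X, 1 rose and 6 fell in PLX3X_CD0, none rose and 1 fell in PLX3X_CD30, and 1 rose and 5 fell in IR. Bfsp2 fell in all 4, at -0.45 ± 0.15 (adjusted p = 0.0469; 0.23 without NT replicate 1), -0.78 ± 0.15 (adjusted p = 0.000933), -0.63 ± 0.15 (adjusted p = 0.0183; 0.0801 without it) and -0.69 ± 0.15 (adjusted p = 0.00195). Elovl6, a fatty acid elongase, fell, at -0.26 ± 0.07 in PLX3X_CD0 (adjusted p = 0.0176; 0.108 without NT replicate 1) and -0.43 ± 0.07 in IR (adjusted p = 0.000228). The non-coding 9630013A20Rik fell, at -1.36 ± 0.30 in IR (adjusted p = 0.00195), and its change was -0.51 where that offset was used (adjusted p = 0.226). The list's median was -0.02, -0.17, -0.13 and -0.21. Leaving out NT replicate 1 gave -0.04, -0.16, -0.11 and -0.23, with no rise and with 0, 3, 0 and 5 falls.

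Of 8 lineage transcription factors other than OLIG1 and OLIG2, Sox10, which all cells of the lineage need, was the call in PLX1X (-0.38 ± 0.08, adjusted p = 0.00416) and PLX3X_CD0 (-0.31 ± 0.08, adjusted p = 0.0135; 0.0753 without NT replicate 1). None passed in PLX3X_CD30 with edgeR (2 at an unadjusted p below 0.05), and DESeq2 called 1. In IR, St18 fell, at -0.73 ± 0.15 (adjusted p = 0.000924) and Nkx2-2 at -0.73 ± 0.26 (adjusted p = 0.0395; 0.182 without NT replicate 1), and 6 of the 8 fell with the length and GC offset. Myrf, the activator of myelin genes, had 47.0 to 49.8 CPM in NT and 46.7 to 54.8 CPM in the treated libraries.

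Among 7 tested growth signals, Pdgfa, the ligand of the Pdgfra product, rose in IR by 0.30 ± 0.06 (adjusted p = 0.001), from 37.5, 38.3 and 41.5 CPM in NT to 47.6, 48.5 and 48.5 CPM. In the PLX groups Pdgfa lay between 34.2 and 41.2 CPM and did not pass. Tgfb1, a cytokine made largely by microglia in brain, fell in all 4 groups, at -2.32 ± 0.23 in PLX1X (adjusted p = 1.49e-06), -2.03 ± 0.22 in PLX3X_CD0 (adjusted p = 2.63e-06), -0.89 ± 0.21 in PLX3X_CD30 (adjusted p = 0.0155) and -0.69 ± 0.21 in IR (adjusted p = 0.0173). Lif fell in PLX1X, at -0.83 ± 0.27 (adjusted p = 0.0385; 0.142 without NT replicate 1).

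Genes of the neighbouring stages also moved. Of 18 genes of mature myelin, none rose, and 4, 9, 1 and 13 fell in PLX1X, PLX3X_CD0, PLX3X_CD30 and IR, with medians of -0.10, -0.20, -0.17 and -0.45. Mbp, myelin basic protein, fell in each, at -0.41 ± 0.07 (adjusted p = 0.000315), -0.66 ± 0.07 (adjusted p = 1.45e-06), -0.40 ± 0.07 (adjusted p = 0.00173) and -0.64 ± 0.07 (adjusted p = 2.07e-06). Mal, a membrane protein of compact myelin, fell in IR, at -0.58 ± 0.08 (adjusted p = 2.56e-05), from 113 to 146 CPM in NT to 79.0 to 86.5 CPM. Without NT replicate 1 the falls in the list counted 4, 6, 1 and 12, 1 gene rose in PLX1X and 1 in IR, and the medians were -0.0059, -0.11, -0.05 and -0.40. The calls of Mbp in the 4 groups and of Mal in IR held without it.

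Division markers were low in IR. Of 10 proliferation genes, none passed in PLX1X or PLX3X_CD30 with edgeR (1 and 2 at an unadjusted p below 0.05, 0 with DESeq2), Aurkb alone fell in PLX3X_CD0 and 4 fell in IR. The falls counted 1, 1, 1 and 3 without NT replicate 1. Mki67 fell in IR, at -2.22 ± 0.37 (adjusted p = 0.000167), from 3.19, 1.59 and 1.59 CPM in NT to 0.631, 0.446 and 0.262 CPM, and Top2a at -1.39 ± 0.28 (adjusted p = 0.000867), and both passed without NT replicate 1, at -1.85 and -1.46. The 10 genes summed to 10.3 to 13.2 CPM in NT and 5.32 to 6.09 CPM in IR, which did not overlap. In brain these genes are also read by other dividing cells, whose part was not tested. Beside all results in IR, 5 of 7 markers of striatal neurons fell (4 without NT replicate 1), whose part was not tested. These markers summed to 2330 to 2520 CPM in NT and 1213 to 1847 CPM in IR.

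**Figure D4:**
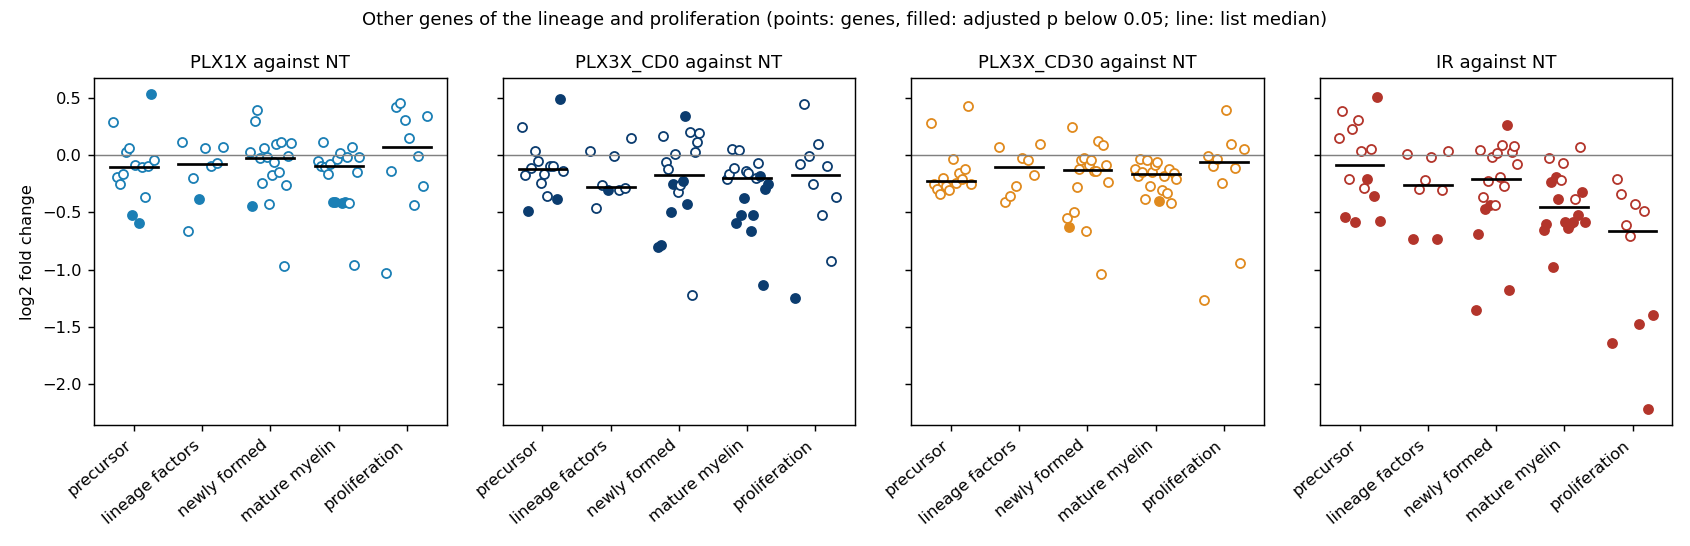
Log2 fold change against NT of 14 further precursor genes, 8 lineage transcription factors, 18 further genes of newly formed oligodendrocytes, 18 mature myelin genes and 10 proliferation genes (points; filled where the adjusted p is below 0.05; lines are list medians). Mature myelin and proliferation genes lie lowest in IR, with medians of -0.45 and -0.66.

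The genes whose levels ran most like those of 3 members over the 15 libraries were found by Pearson's r of log2 CPM among genes whose log2 CPM averaged 1 or more. These libraries fall into 5 groups and share their scaling, so r is a description. For Bcas1 the nearest were Kif5b and Qk (both r = 0.969), Igip (0.965), Mrfap1 (0.962) and Bod1l (0.961). Igip averaged 14.6 CPM in NT, 8.68 in PLX1X, 6.20 in PLX3X_CD0, 10.0 in PLX3X_CD30 and 6.89 in IR. Qk, an RNA-binding protein needed for myelin transcripts, averaged 514 CPM in NT, 419 in PLX1X, 368 in PLX3X_CD0, 416 in PLX3X_CD30 and 357 in IR. For Gpr17 the nearest were Nfxl1 (0.862), Denn2b (0.839), Mllt3 (0.833), Plod2 (0.829) and Gm13830 (0.829). For Pdgfra, whose level varied little, they were Pcdhgb6 (0.813), Otof (0.809), Plscr4 (0.798), Alx4 (0.792) and Syde2 (0.786).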

How the data were processed

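Forebrain RNA was isolated with an RNeasy Lipid kit, converted to cDNA with a SMARTer Ultra Low kit, which does not mark strand, and sequenced in paired reads, per the labels' protocols. The authors deposited raw counts per gene and the same counts as CPM (scaled to a common library total). CPM equalled count over total to within 4.99e-07, and the tests used the counts. The submitters' processing notes name DRAGEN, DESeq2 and mm10; for what each did, the versions, the annotation and the use of strand: not given in the sources used here. Of 55774 rows, 287 repeated an identifier with identical values and were dropped. Among counts of 1 to 4, 70.6% to 74.7% were even, so a count may be worth less than a fragment, and the spread between libraries set every test. Positions came from GENCODE mouse release 21 (mm10), which held 55141 of the identifiers.

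All 15 libraries entered an edgeR 4.0.16 fit (R 4.3.3) with TMM normalisation, a mean for each group and filterByExpr, which kept 21780 genes. Robust two-sided quasi-likelihood F-tests (biological coefficient of variation 12.1%) covered 10 pairwise comparisons and any difference among the 5 groups, with Benjamini-Hochberg adjustment over all genes. A standard error is the size of the log2 fold change divided by the root of F. The fitting code was tested on simulated data for PLX1X against NT, as a check of the code only. Settings varied were DESeq2 1.42.0, RLE factors, the filter (none, or a CPM of at least 1 in 3 libraries), 6-library fits, the replicate number as a block, each library left out, and a loess offset (span 0.3) on transcript length and GC content. Named are all 10 members, up to 3 genes of each other list with the smallest adjusted p in a comparison, and the 5 genes most alike to Pdgfra, Gpr17 and Bcas1. Of the genes the rule picks, 1 is left out of the text and not reported here. Myrf and Lims2 were named after their values were seen. The members and lists were chosen with earlier results of these data known.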

Additional observations from a re-analysis of the deposited data

How the results depend on the processing

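No member comparison changed direction among called values under any alternative, and 18 of the 38 called member comparisons stayed past the threshold under every alternative run, among them Bcas1 against NT in all 4 treated groups. Of 2200 alternative values over 100 pairwise member results, 1969 kept their direction and side of the threshold, 91 changed sign without a call in either fit, 108 lost a call and 32 gained one. Of 210 over the 5 groups, which have no direction, 200 kept their side, 8 lost a call and 2 gained one. Fits on the 6 libraries compared counted 3 members in PLX1X against NT (7 in the fit on all libraries), 1 in PLX3X_CD30 against NT (3) and 1 in PLX3X_CD30 against PLX1X (0). The length and GC offset counted 1 in PLX3X_CD0 against PLX1X (2), 1 in PLX3X_CD30 against PLX3X_CD0 (4), 2 in IR against PLX1X (4), 1 in IR against PLX3X_CD0 (2) and 1 in IR against PLX3X_CD30 (4); the cause was not tested. It counted more in PLX3X_CD0 against NT (9 against 7), PLX3X_CD30 against NT (4 against 3), IR against NT (7 against 5) and over the 5 groups (9 against 7). With each library left out in turn, the counts ran from 4 to 7 in PLX1X against NT, 5 to 8 in PLX3X_CD0 against NT, 2 to 3 in PLX3X_CD30 against NT, 5 to 5 in IR against NT, 0 to 3 in PLX3X_CD0 against PLX1X, 0 to 0 in PLX3X_CD30 against PLX1X, 1 to 4 in PLX3X_CD30 against PLX3X_CD0, 4 to 5 in IR against PLX1X, 2 to 3 in IR against PLX3X_CD0, 3 to 5 in IR against PLX3X_CD30 and 6 to 7 over the 5 groups. The replicate numbers showed no clear pairing of the libraries. Deviations from the group means correlated from -0.09 to 0.23 between libraries of the same number and from -0.22 to 0.27 between those of different numbers. Of 15 libraries, 7 correlated best with their own number, and these values do not settle whether the numbers pair the libraries. With the replicate block, 1 member was counted in PLX3X_CD0 against PLX1X (2 without it), and 6, 7, 3 and 5 against NT in PLX1X, PLX3X_CD0, PLX3X_CD30 and IR. Over all genes, the counts past the threshold also moved. In fits on 6 libraries they were 2143 against 3939 (PLX1X against NT), 2601 against 4732 (PLX3X_CD0 against NT), 359 against 1432 (PLX3X_CD30 against NT) and 814 against 263 (PLX3X_CD30 against PLX1X). With the offset they were 328 against 536 (PLX3X_CD0 against PLX1X, 137 higher and 191 lower in place of 390 and 146), 3436 against 6197, 2059 against 4687 and 1187 against 3597 (IR against PLX1X, PLX3X_CD0 and PLX3X_CD30), and between PLX3X_CD30 and PLX3X_CD0 459 were higher and 256 lower in place of 407 and 421. Without the filter they were 1186, 696 and 1395 against 536, 263 and 828 (PLX3X_CD0 and PLX3X_CD30 against PLX1X, PLX3X_CD30 against PLX3X_CD0), and with DESeq2 1076 and 553 in the first 2 of these. With each library left out in turn, counts over all genes ran from 608 to 1714 (PLX3X_CD30 against NT, lowest without PLX3X_CD30 replicate 3), 125 to 490 (PLX3X_CD30 against PLX1X, lowest without PLX1X replicate 1, highest without NT replicate 1), 384 to 1203 (PLX3X_CD30 against PLX3X_CD0, lowest without PLX3X_CD30 replicate 1), 3029 to 5637 (IR against PLX3X_CD0) and 1975 to 4617 (IR against PLX3X_CD30), the last 2 lowest without IR replicate 2. Depth limited none of the members, whose lowest count was 256.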
